A study of Mus musculus with 5 samples.

Results

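Caspases and apoptosome components are the enzymes and assembly factors that carry out apoptosis once a cell has been committed to it. The set was chosen by gene name: Casp2, Casp6, Casp8, Casp9, Apaf1, Cflar, Fadd and Diablo, 8 listed genes. Of these, 7 had a row of their own among 22653 single genes in the table. Casp2 appeared in a row shared with its neighbour Tmem139, so it was described from that row and left out of the counts. The 7 genes were measured in RNA from whole forelimbs of mouse embryos at E11.5, staged at 47 to 48 somites, on a background of mixed C57BL/6 and Swiss Webster. The Prmt5cKO group held 2 samples labelled Prx1Cre+/-;Prmt5c/c, and the control group held 3 samples whose label gives no alleles. Prx1Cre is a recombinase driven by a limb enhancer of Prrx1 and is active in the limb bud mesenchyme, while a whole forelimb also holds ectoderm, blood cells and vessels outside that domain. Prmt5, the gene it deletes, encodes an arginine methyltransferase.

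Caspases are proteases that cut their substrates after aspartate residues and are made as inactive precursors. On the extrinsic route, a death receptor at the cell surface recruits the adaptor Fadd, which gathers caspase-8, and the catalytically inactive relative encoded by Cflar (c-FLIP) competes with or pairs with caspase-8 in that complex. On the intrinsic route, cytochrome c leaves the mitochondria and binds Apaf1, which assembles into the apoptosome and activates caspase-9, while Diablo (Smac) relieves the caspases of the inhibitor Xiap. Both routes end in the executioner caspases, and in the limb bud apoptosis is known from the ectodermal ridge, the mesenchyme at the anterior and posterior margins and, later, the tissue between the digits.

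The values are the authors' FPKM (fragments scaled to transcript length and library total), with 1 value for each genotype, and the authors' deposited table adds a log2 fold (Prmt5cKO over control) with its q-value, an adjusted p. No value per sample was at hand, so no SD is given and sequencing depth is unknown. How the q-values treat the spread between samples is not stated by the labels or headers. A gene was counted as changed when its mean over the genotypes was at least 1 FPKM and the authors' q was under 0.05. Prmt5 itself stood at 12.5 FPKM in Prmt5cKO forelimbs, against 40.9 FPKM in control forelimbs, and the authors' deposited table gave a log2 fold of -1.71, with q entered as 0. Of 11674 genes with that mean, 10614 were tested, and the median log2 ratio of all 11674, computed with 1 FPKM added to each value, was -0.12. The Y-linked Ddx3y stood at 21.8 FPKM in Prmt5cKO and 0.0840 FPKM in control forelimbs, and Xist at 0.392 and 87.3 FPKM in the same order, so the genotypes also differ in transcripts of embryo sex, and these origins cannot be told apart in any comparison here. The forelimb gene Tbx5 was at 19.95 FPKM in Prmt5cKO and 23.0 FPKM in control, and the hindlimb gene Pitx1 at 0.268 and 0.143 FPKM in the same order. Tbx4, the other hindlimb gene listed, stood at 2.95 FPKM in Prmt5cKO and 3.81 FPKM in control (authors' deposited table: q = 0.157).

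The core machinery was present in both genotypes, and 1 of its genes changed. Cflar, the inhibitory partner of caspase-8, fell to 7.75 FPKM in Prmt5cKO forelimbs, against 10.5 FPKM in control forelimbs. Of the 7 genes, 1 fell and 0 rose, 5 missed the threshold (Casp6, Casp8, Casp9, Fadd and Diablo) and 1, Apaf1, was not tested by the authors. Among all tested genes, 19.3% fell and 4.83% rose by the same rule, so 1 fall among 6 tested genes is near the background share and is not a result about the set. The 0 rises rest on the authors' q alone, since the table holds no unadjusted p. In 6 of the 7 genes the Prmt5cKO value was the lower one (5 of 7, with Casp8 turning, when ratios were centred on the median of all genes or the columns quantile normalized), while 69.8% of all 11674 genes had a log2 ratio below 0. The median log2 ratio of the 7 genes, with 1 FPKM added, was -0.16, which is 0.043 lower than the median of all genes.

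**Figure D1:**
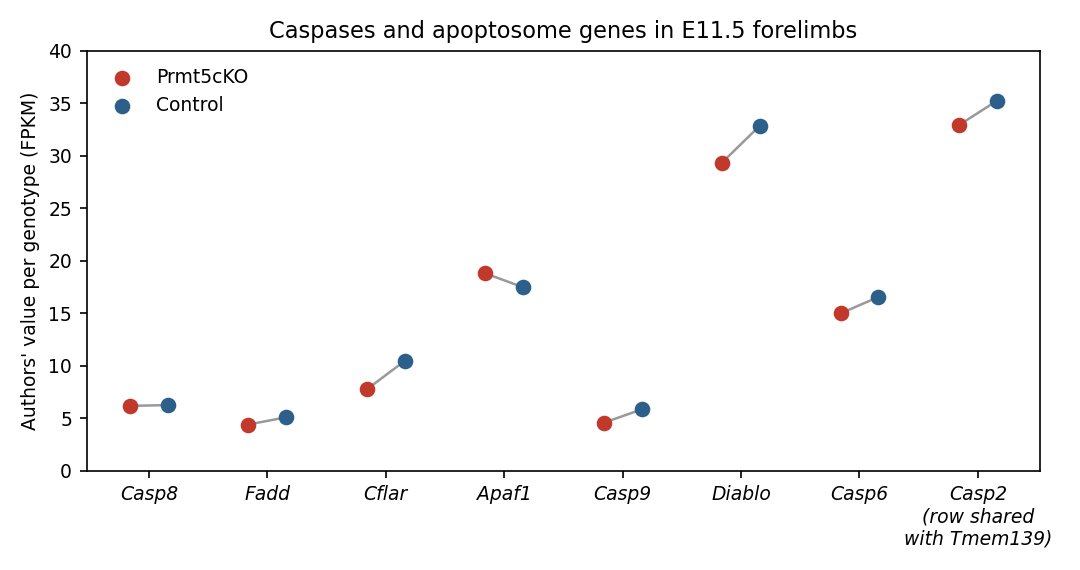
FPKM of each gene on the vertical axis, with the Prmt5cKO value left and the control value right in each pair, from the authors' 1 value per genotype. Prmt5cKO lies lower in every pair but Apaf1, and the widest gap in FPKM is that of Diablo, 29.4 in Prmt5cKO and 32.9 in control.

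The order of the levels was the same in both genotypes. Diablo was highest, at 29.4 FPKM in Prmt5cKO and 32.9 FPKM in control, a level above that of 79.8% of measured genes. Apaf1 and Casp6 followed at 18.8 and 15.0 FPKM in Prmt5cKO, against 17.5 and 16.5 FPKM in control. Cflar, Casp8, Casp9 and Fadd formed the lower part of the order, from 7.75 down to 4.40 FPKM in Prmt5cKO and from 10.5 down to 5.09 FPKM in control. The highest and lowest genes lay 6.67-fold apart in Prmt5cKO and 6.46-fold apart in control. Without values per sample, it cannot be said which neighbours in this order differ beyond their spread.

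Cflar and Casp8 were examined together because they lie side by side on chromosome 1 and their proteins meet in the same complex. In GENCODE M21 on GRCm38 (mm10), Cflar spans 58711508 to 58758884 and Casp8 spans 58795374 to 58847503, both on the plus strand, with 36489 bases between them. The RefSeq promoter windows of this pair, and those of the apoptosome pair Apaf1 and Casp9, are printed from 250 bases before to 50 bases after the RefSeq start (GRCm38.p6), 5′ to 3′ on the gene's strand. They show the start of the gene that fell, of its neighbour and of the partners on the intrinsic route. The windows are chr1:58711241-58711540 (plus strand) for Cflar, chr1:58802252-58802551 (plus strand) for Casp8, chr10:91082694-91082993 (minus strand) for Apaf1 and chr4:141793362-141793661 (plus strand) for Casp9. Capitals mark letters that match any of the motifs named after them.
Cflar: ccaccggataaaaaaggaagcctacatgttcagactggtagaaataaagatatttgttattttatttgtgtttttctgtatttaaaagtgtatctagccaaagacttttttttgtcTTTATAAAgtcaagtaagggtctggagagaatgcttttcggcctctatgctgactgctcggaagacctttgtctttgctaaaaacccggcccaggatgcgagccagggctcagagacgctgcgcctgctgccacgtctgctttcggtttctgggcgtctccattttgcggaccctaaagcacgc
Casp8: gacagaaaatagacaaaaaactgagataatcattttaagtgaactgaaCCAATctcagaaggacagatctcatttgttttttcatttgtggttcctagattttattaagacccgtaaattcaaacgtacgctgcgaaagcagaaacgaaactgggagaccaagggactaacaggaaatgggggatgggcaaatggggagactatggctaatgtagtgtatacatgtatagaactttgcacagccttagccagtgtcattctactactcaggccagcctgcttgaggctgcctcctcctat
Apaf1: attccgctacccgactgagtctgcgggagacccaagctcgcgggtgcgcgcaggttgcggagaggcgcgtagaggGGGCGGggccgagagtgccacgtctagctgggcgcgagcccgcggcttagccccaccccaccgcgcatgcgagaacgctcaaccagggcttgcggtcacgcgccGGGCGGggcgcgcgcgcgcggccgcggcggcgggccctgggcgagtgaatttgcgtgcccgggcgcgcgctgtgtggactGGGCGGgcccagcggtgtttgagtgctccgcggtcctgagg
Casp9: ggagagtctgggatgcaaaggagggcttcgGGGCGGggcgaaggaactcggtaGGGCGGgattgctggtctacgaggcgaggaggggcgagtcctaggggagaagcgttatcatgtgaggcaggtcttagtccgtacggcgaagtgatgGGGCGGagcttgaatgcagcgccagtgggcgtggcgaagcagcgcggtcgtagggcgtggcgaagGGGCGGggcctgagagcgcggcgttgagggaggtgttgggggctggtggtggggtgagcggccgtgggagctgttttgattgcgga

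Motifs were searched on both strands: the GC box GGGCGG, the CCAAT box CCAAT, the TATA box TATAAA, E2F as TTTCCCGC or TTTGGCGC, and the p53 half-site and the NF-kappaB site by their usual consensus. All 8 listed genes, Casp2 included, matched a window. The GC box occurred in 6 of 8 windows and in 35.7% of 32851 mouse promoter windows, with 4 matches in Casp9 and 3 in Apaf1. Casp8 and Cflar were the windows with no GC box. Cflar held the letters TATAAA on both strands, overlapping from -134 to -127, and 13.6% of all windows hold these letters in some position. E2F letters occurred in Casp2 and Fadd and in 1.56% of all windows, overlapping a GC box in each of the pair. The p53 half-site and the NF-kappaB site matched 0 of the 8 windows, against 8.36% and 4.51% of all windows, which says only that these letters are not in these 300 bases. CpG number ran from 5 in Casp8 and 12 in Cflar to 28 in Casp9 and 46 in Apaf1, against a median of 7 over all windows. The Casp8 window starts from a RefSeq position 7128 bases downstream of the GENCODE start, so it does not cover the earlier start.

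**Figure D2:**
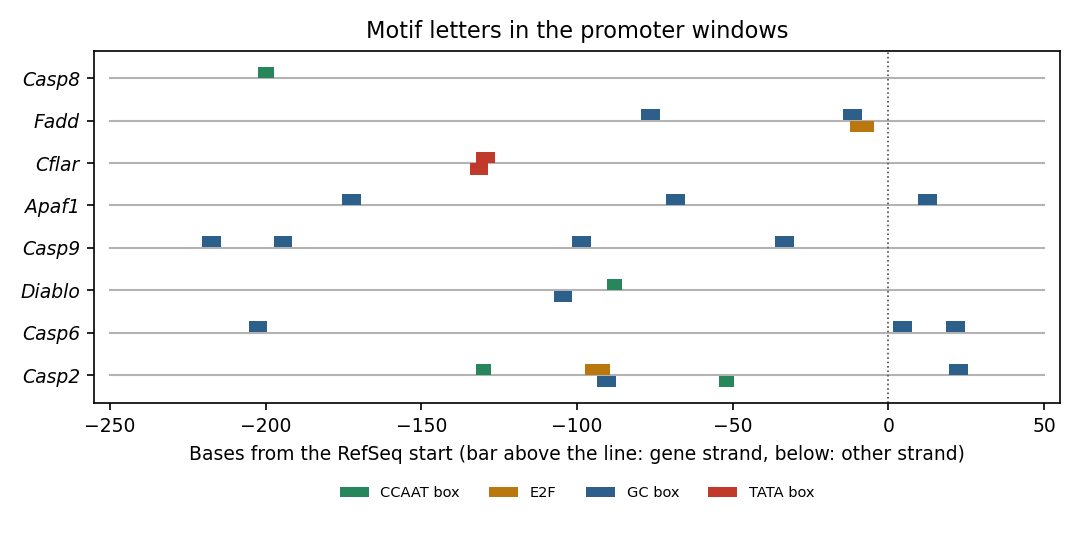
Motif matches in the windows of the 8 listed genes, with distance from the RefSeq start in bases on the horizontal axis and each bar a match, above the line for the gene's strand and below it for the other. GC boxes occur in 6 of the 8 windows, and Casp8 and Cflar hold none.

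On the extrinsic route, Cflar fell and its partners did not pass. For Cflar the authors' deposited table gave a log2 fold of -0.43 at q = 8.3e-04, and Prmt5cKO forelimbs held 74.1% of the control FPKM. Of all measured genes, 12.9% had a lower log2 ratio than Cflar, so a fall of this size was common in the table. In genes with a mean of 5 to 20 FPKM, the range that holds Cflar, 22.9% of tested genes fell. The tissue was bulk forelimb, in which fewer cells of a type and less RNA per cell cannot be told apart.

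Casp8, the initiator protease of the death receptor complex, stood at 6.17 FPKM in Prmt5cKO and 6.25 FPKM in control. The authors' deposited table gave it a log2 fold of -0.017 at q = 0.970, the smallest difference of the 7 genes. Fadd, the adaptor between receptor and caspase-8, maps to chromosome 7, 144577318 to 144582463, minus strand. It stood at 4.40 FPKM in Prmt5cKO and 5.09 FPKM in control, and the authors' deposited table gave a log2 fold of -0.21 at q = 0.564. An antisense gene, Faddos, overlaps 239 exonic bases of Fadd, and whether the libraries kept strand is not stated by the labels. The FPKM of Cflar per FPKM of Casp8 was 1.25 in Prmt5cKO and 1.67 in control, while that of Casp8 per Fadd was 1.40 and 1.23 in the same order. These ratios come from 1 value per genotype, carry no error and were chosen after their values were seen.

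On the intrinsic route the scaffold and its protease lay on different sides of the control value. Apaf1, on chromosome 10, 90989311 to 91082770, minus strand, stood at 18.8 FPKM in Prmt5cKO and 17.5 FPKM in control, 108% of the control value. The authors' deposited table lists its fold as 0 and its q as 1, read here as not tested, so its log2 ratio of 0.11 was computed from the FPKM and has no q. Casp9, the protease that the apoptosome activates, maps to chromosome 4, 141793612 to 141815976, plus strand. It stood at 4.56 FPKM in Prmt5cKO and 5.83 FPKM in control, 78.2% of the control value, and the authors' deposited table gave a log2 fold of -0.35 at q = 0.190. Among the 7 genes only Cflar had a lower ratio than Casp9, and Casp9 did not pass. The FPKM of Apaf1 per FPKM of Casp9 was 4.12 in Prmt5cKO and 2.997 in control.

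Genes next to the apoptosome pair were read from the same table. Ikbip starts 169 bases from Apaf1 on the opposite strand and stood at 11.9 FPKM in Prmt5cKO and 13.0 FPKM in control (authors' deposited table: q = 0.692). Dnajc16, 2680 bases before Casp9 on the opposite strand, stood at 5.23 FPKM in Prmt5cKO and 4.23 FPKM in control, a rise (authors' deposited table: log2 fold 0.31, q = 0.0102). Casp9 shares 94 exonic bases with each of Cela2a and Ctrc, pancreatic protease genes on the opposite strand, and both are listed at 0 in both genotypes. The neighbours were taken by position after the values of the table were known.

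Diablo, released from mitochondria to bind inhibitors of apoptosis, maps to chromosome 5, 123509765 to 123524176, minus strand. It stood at 29.4 FPKM in Prmt5cKO and 32.9 FPKM in control, and the authors' deposited table gave a log2 fold of -0.16 at q = 0.379. A second row under the same symbol, lower in level and not used by the rule, stood at 1.54 FPKM in Prmt5cKO and 1.23 FPKM in control (authors' deposited table: q = 0.463). The table does not say what separates the rows. Diablo shares 1326 exonic bases with B3gnt4 on the opposite strand, which stood at 0.774 FPKM in Prmt5cKO and 0.942 FPKM in control. On the same strand Diablo shares 1193 exonic bases with the protein-coding Gm49027, which has no row of its own. How much of the Diablo value comes from these shared bases is unknown. The FPKM of Diablo per FPKM of Xiap, the inhibitor it binds, was 1.95 in Prmt5cKO and 1.94 in control.

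Casp6, an executioner caspase, maps to chromosome 3, 129901425 to 129914103, plus strand. It stood at 15.0 FPKM in Prmt5cKO and 16.5 FPKM in control, and the authors' deposited table gave a log2 fold of -0.14 at q = 0.648. Under the rescalings Casp6 stayed below 0, at -0.020 when ratios were centred on the median of all genes and -0.0041 under quantile normalization on the log2 scale. Below the minimum level lay 4 other caspases. Casp1 and Casp4, caspases of inflammation, stood at 0.386 and 0.188 FPKM in Prmt5cKO and at 0.240 and 0.224 FPKM in control. Casp12 and Casp14, of which Casp14 is known from keratinising skin, stood at 0.0215 and 0.0448 FPKM in Prmt5cKO and at 0.0402 and 0.0486 FPKM in control.

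Casp2, an initiator caspase activated on a platform of Pidd1 and the adaptor Cradd, maps to chromosome 6, 42264985 to 42282508, plus strand, 429 bases after Tmem139. The row that names both genes stood at 32.9 FPKM in Prmt5cKO and 35.2 FPKM in control, and the authors' deposited table gave a log2 fold of -0.10 at q = 0.630. How much of it belongs to Casp2 is unknown. Pidd1, a known target of p53, rose to 7.89 FPKM in Prmt5cKO, against 3.85 FPKM in control, and the authors' deposited table gave a log2 fold of 1.04, with q entered as 0. Cradd stood at 4.51 FPKM in Prmt5cKO and 6.44 FPKM in control (authors' deposited table: log2 fold -0.51, q = 0.109), so the FPKM of Pidd1 per FPKM of Cradd was 1.75 in Prmt5cKO and 0.597 in control.

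**Figure D3:**
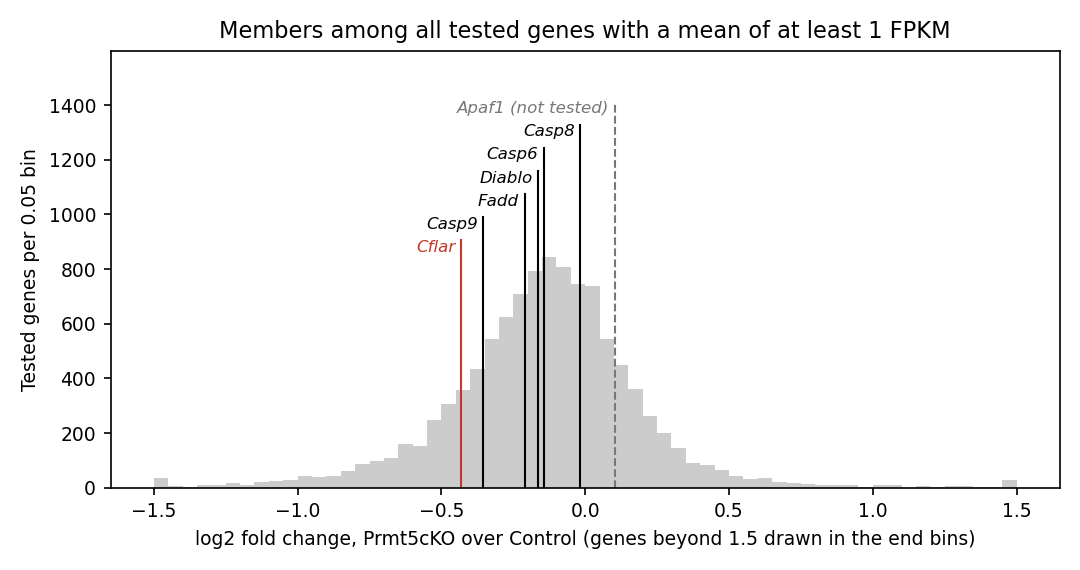
Log2 fold changes of Prmt5cKO over control on the horizontal axis, with grey bars counting the 10614 tested genes in bins of 0.05 and lines marking the 7 genes. Cflar, at -0.43, is the outermost of the 7 and Apaf1, drawn dashed at 0.11 from its FPKM, was not tested.

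How often folds of these sizes passed in the table was counted among other genes of like level. Of 659 tested genes within 2-fold of the mean level of Cflar and within 0.1 of its log2 fold change, 407 (61.8%) passed the authors' q. Of 748 such genes around Casp9, 213 (28.5%) passed. Around Diablo 99 of 1018 passed (9.72%), around Casp6 105 of 1411 (7.44%), around Fadd 66 of 918 (7.19%) and around Casp8 0 of 1020. Differences of the size seen in Casp9, Diablo, Casp6, Fadd and Casp8 thus mostly did not pass in genes of like level, and a q over the threshold does not show that they did not differ.

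**Figure D4:**
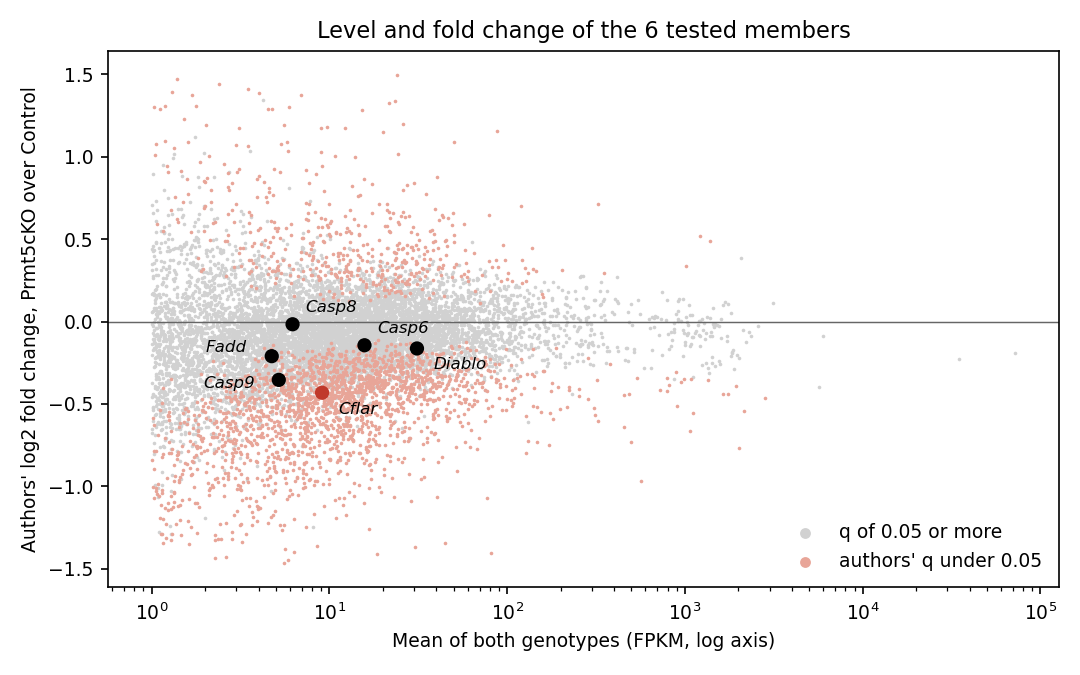
Mean FPKM of both genotypes on a log axis against the authors' log2 fold change of Prmt5cKO over control, for tested genes with a fold change between -1.5 and 1.5, with the 6 tested members enlarged. Cflar (red) passed and Casp9, at a lower mean of 5.20 FPKM, did not, and passing and other genes mix around both.

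The genes around these enzymes were taken from 7 lists of 57 symbols, of which 38 had a row of their own and a mean of at least 1 FPKM. In these 38, 5 rises and 4 falls passed, 24 genes missed the threshold and 5 were left untested by the authors. Left out of these counts is a row named 4-Sep, which may be Sept4 of the mitochondrial list and which fell (values below). Of the 33 tested, 12.1% fell and 15.2% rose, against 19.3% and 4.83% of all tested genes, so the falls are no more frequent than in the table as a whole. Nothing particular to the lists is read from these shares. The 5 rises belonged to the lists of death receptors and of adaptors. Of 6 measured death receptors, all tested, 3 rose and none fell, where 4.83% of all tested genes rose. Tnfrsf10b, the receptor for the ligand TRAIL, stood at 9.94 FPKM in Prmt5cKO and 3.83 FPKM in control, and the authors' deposited table gave a log2 fold of 1.37, with q entered as 0. Fas stood at 1.75 FPKM in Prmt5cKO and 0.324 FPKM in control (authors' deposited table: log2 fold 2.43, q = 0.0203) and reached the minimum level only through its Prmt5cKO value. Of the other 5 measured receptors 2 rose, and the 15.2% of rises over the lists also counts Fas. Edar, a receptor of skin appendage development, stood at 3.12 FPKM in Prmt5cKO and 2.22 FPKM in control (authors' deposited table: log2 fold 0.49, q = 0.0205). Tnfrsf10b, Fas and Pidd1 are known p53 targets. The other genes here were not sorted by that trait, and any part of p53 in these values was not tested. Of the 5 death ligands listed, 4 were below the minimum level with a summed 0.234 FPKM in Prmt5cKO and 0.282 FPKM in control, and Tnfsf12 lay in a row shared with other genes.

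Of 10 measured adaptors and kinases, all tested, 2 rose, none fell and 8 did not pass, against the same 4.83% of rises. Beside Pidd1, Casp8ap2, a large nuclear protein that binds caspase-8 and takes part in histone gene expression, stood at 26.6 FPKM in Prmt5cKO and 23.4 FPKM in control (authors' deposited table: log2 fold 0.18, q = 0.00777). Of 5 measured mitochondrial death proteins, Htra2, a protease that also binds inhibitors of apoptosis, fell to 13.9 FPKM in Prmt5cKO, against 18.1 FPKM in control (authors' deposited table: log2 fold -0.38, q = 0.00832), and 4 did not pass. The 1 fall among 5 tested genes stands beside 19.3% of all tested genes and is not a result about the list. Sept4, also listed, has no row under that symbol and is not in these counts. A row named 4-Sep, which may be Sept4 with its symbol turned into a date, had a mean of 1.78 FPKM over the genotypes. The authors' deposited table gave that row a log2 fold of -0.81 at q = 0.038, a fall by the same rule. Of 5 measured inhibitors of apoptosis, 2 did not pass and 3 were not tested. Of 12 measured caspase substrates 3 fell, 7 missed the threshold and 2 had no test. The 3 falls among 10 tested genes stand beside 19.3% of all tested genes and are not a result about the list. All 3 lie at 5 to 20 FPKM, where 22.9% of tested genes fell. The 10 tested genes also hold levels outside that range, so 22.9% is not the matching share for them. The actin-severing Gsn stood at 11.05 FPKM in Prmt5cKO and 14.7 FPKM in control, the nuclear lamina gene Lmna at 9.56 and 13.2 FPKM and the chromatin organiser Satb1 at 5.27 and 7.28 FPKM in the same order. The authors' deposited table gave Gsn a log2 fold of -0.41 at q = 0.00176, Lmna -0.47 at q = 0.00385 and Satb1 -0.47 at q = 0.00610.

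Markers of macrophages, the cells that clear dying cells, differed between the genotypes beside these values. Of 17 measured macrophage genes, all tested, 12 rose and none fell, where 4.83% of all tested genes rose and 19.3% fell. Ptprc, Aif1 and Mpeg1, which rose, and Trem2, which did not pass, reached the minimum level only through their Prmt5cKO values, and 9 of the other 13 rose. The 20 genes with a row summed to 89.7 FPKM in Prmt5cKO and 48.8 FPKM in control, none of them listed at 0. Their part in the levels of the caspases, receptors and adaptors was not tested. Markers of limb mesenchyme summed to 546 FPKM in Prmt5cKO and 537 FPKM in control over 8 genes, of which 1 rose, 5 missed the threshold and 2 had no test. Surface ectoderm markers summed to 156 FPKM in Prmt5cKO and 165 FPKM in control over 8 genes, of which 1 rose and 1 fell. Endothelial markers summed to 74.6 FPKM in Prmt5cKO and 82.0 FPKM in control over 8 genes, of which Erg and Cd34 fell (authors' deposited table: q = 3.75e-06 and 0.0119), 4 missed the threshold and 2 had no test. Myogenic markers summed to 80.1 FPKM in Prmt5cKO and 92.9 FPKM in control over 7 genes, with no call among the 5 that reached the minimum level, and 5 of the 7 had the higher value in Prmt5cKO. Pax3 lay below the minimum level, at 1.14 FPKM in Prmt5cKO and 0.525 FPKM in control, and was not counted. The authors' deposited table gave Pax3 a log2 fold of 1.11 at q = 0.00187. The lower myogenic sum came from Actc1 and Myog, the most abundant of the list, while the median log2 ratio of its 5 measured genes was 0.16. Erythroid markers summed to 7329 FPKM in Prmt5cKO and 9210 FPKM in control over 7 genes, of which 1 fell. Most of the lower erythroid sum came from Hbb-y, at 4911 FPKM in Prmt5cKO and 6478 FPKM in control. Hbb-y did not pass (authors' deposited table: q = 0.131). The calls in the lists other than macrophages stand beside 19.3% of falls and 4.83% of rises among all tested genes. They are not read as results about those cells.

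**Figure D5:**
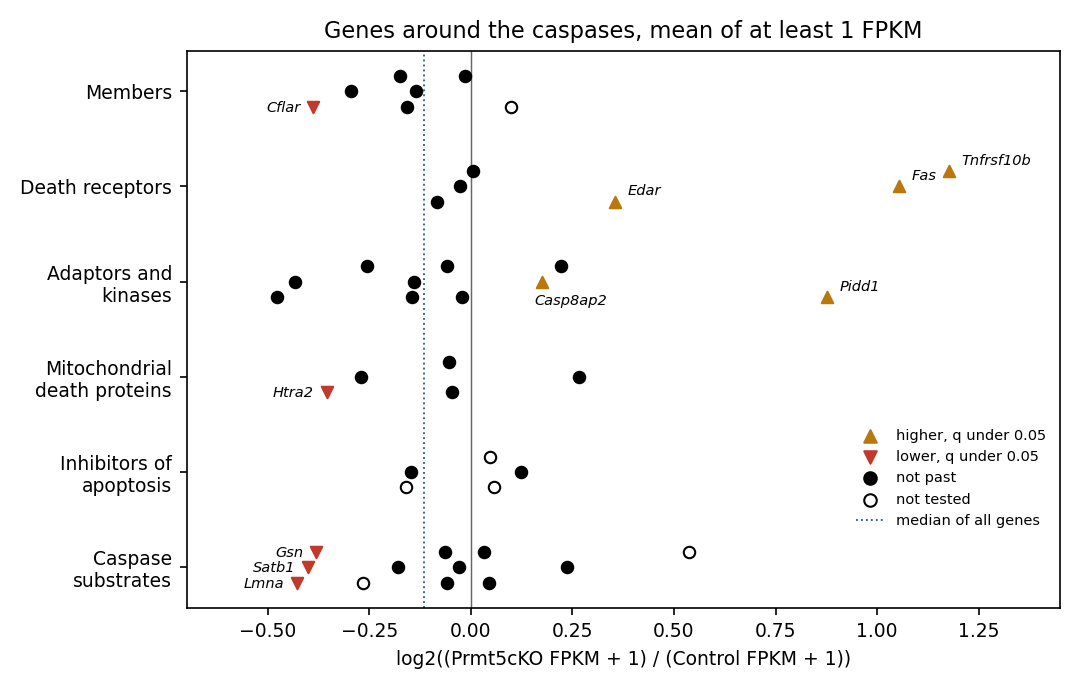
Log2 ratio of Prmt5cKO over control with 1 FPKM added on the horizontal axis, with each point a gene with a mean of at least 1 FPKM, by list. The 5 genes that rose are receptors or adaptors, and Cflar is the member that fell.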

How the data were processed

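RNA from 2 Prmt5cKO and 3 control samples of whole forelimbs was compared. Per the submitters' processing notes, the tools were Cufflinks 2.1.1, TopHat2 2.0.10 and Bowtie2 2.1.0 on build mm10, with no roles or settings given. The authors deposited 1 FPKM value per genotype, a log2 fold change and a q-value (adjusted p-value) for 28092 rows, per the file headers; neither says how replicates were combined and tested. The deposited fold is listed as 0 with a q of 1 in rows read here as not tested. For tested genes the deposited log2 fold change differed from the log2 of the FPKM ratio by at most 1.3e-05. FPKM as such corrects for length and total but not for composition, and whether the deposited values were scaled further is not stated.

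Rows naming 1 gene were used, with the row of highest mean for a repeated symbol. Log2 ratios were computed with a pseudocount of 1 FPKM, which understates the changes of low genes. The members and lists were chosen with earlier results of these data known. Named beside the members were the targeted gene, 4 other caspases and up to 3 changed genes of each list by smallest q. Marker genes of highest level, which the rule also takes, are given mainly as list sums. Picked with their values in view were Ddx3y, Xist, Tbx5, Tbx4, Pitx1, Pax3, Cradd, Xiap and the row named 4-Sep. So were the 4 macrophage and 2 endothelial genes, and neighbouring or overlapping genes. Some listed genes are not reported here. Positions are from GENCODE M21 and promoters from RefSeq GRCm38.p6. A core of the interferon-stimulated response element was also searched in the promoter windows, matched that of Cflar, and is not reported further here. No share of all windows is at hand for it, so the match is not read as a trait of Cflar. Python 3.11.15 and pandas 2.3.3 were used, and the calling was tested on simulated data.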

Additional observations from a re-analysis of the deposited data

How the results depend on the processing

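The median log2 ratio of the 7 genes was -0.16 and stayed between -0.17 and -0.15 when each gene was left out in turn. It moved to -0.043 when centred on the median of all genes and to -0.032 under quantile normalization, so most of its distance from 0 is shared with all genes. With pseudocounts of 0.1 and 0.01 FPKM, or all rows of a symbol summed, it moved by less than 0.1, and likewise with Casp2 taken in by its shared row, an alternative chosen after seeing the data. Cflar kept its sign in each of these, at -0.27 when centred and -0.25 under quantile normalization, while Casp8 turned to 0.10 and 0.14. The 1 fall and 0 rises among the members were the same at a q under 0.01 or 0.1, with no minimum level and with a minimum of 5 FPKM. Of the list counts, 4 were above 0, and 14 of their 16 values under these settings stayed within 1.5 times, while 10 were 0 and could hardly move. The 3 rises of death receptors became 1 at a q under 0.01 and 1 at a minimum of 5 FPKM, and the adaptors gained 1 fall at a q under 0.1. No paired analysis was possible because the files hold 1 value per genotype, and no replicate could be left out for the same reason; those alternatives were not run. Without values per sample, neither depth nor replicate spread limits could be given.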
